A study of Mus musculus with 6 samples.

Results

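The nuclei described here are newly formed oligodendrocyte nuclei of the mouse forebrain, recognized by Enpp6. A nucleus was a member if it held at least 2 unique molecular identifiers (UMIs, each standing for 1 captured RNA molecule) of Enpp6 and at least 2 of Bcas1. It could hold at most 1 UMI of Gpr17, Bmp4 and Neu4 together, at most 1 of Pdgfra, and at most 1 of the 4 neuronal genes Slc17a7, Slc17a6, Gad1 and Gad2 together, with under 10% of its UMIs from mitochondrial genes. Members were thus chosen by these measured counts, which are given as a description only. Of 75878 barcodes, 678 met the rule, which is 0.894% of the 75867 nuclei under the mitochondrial limit (exact 95% binomial interval 0.828 to 0.963%). All intervals given here cover counting error and nothing else.

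Oligodendrocytes make the myelin sheath of axons in the brain. They arise from dividing progenitors that carry the growth factor receptor Pdgfra, leave the cell cycle as committed precursors marked by the receptor Gpr17, and then pass through a short newly formed stage in which they spread processes and contact axons, before they wrap axons as mature cells. Enpp6 encodes a choline-specific phosphodiesterase of the cell surface and Bcas1 a protein of young, early myelinating oligodendrocytes; both are textbook marks of the newly formed stage, as are Tns3, an adaptor at integrin contacts, and Itpr2, a calcium channel of the endoplasmic reticulum.

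The forebrains came from 3 wild-type (WT) and 3 Npc1-/- mice at postnatal day 16, littermates bred as F1 hybrids of BALB/cJ and C57BL6/J, with the null allele Npc1nih in every cell of the mutants. NPC1 is the lysosomal membrane protein that passes cholesterol out of the lysosome. Nuclei were isolated from frozen tissue, and 3' droplet libraries (10x Genomics, v2 chemistry) were sequenced. The deposited counts name 6 libraries by a barcode suffix from 1 to 6, and nothing in the sources used here ties a suffix to a mouse, so WT and Npc1-/- were not compared and each library's value is shown singly.

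The libraries held 8217 to 16118 barcodes (median 12981) and median depths of 4469 to 5439 UMIs per nucleus. Members were about as deep in every library, with medians of 4619 to 5590 UMIs, and 5066.5 over all 678. No member shared its 16 barcode bases with another member, although 12 shared them with some barcode of another library. Of the members, 11.4% were among the highest 10% of doublet scores of their library and 10.5% held 3 or more UMIs of defining genes of astrocytes, microglia, endothelial cells, pericytes or fibroblasts. The other stages of the lineage were close to these values, at 11.2 to 12.6% and 8.73 to 12.5%.

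To place the members within the lineage, 3 other stages were set apart by rules of the same kind. Progenitor nuclei (1436) held at least 2 UMIs each of Pdgfra and Ptprz1. Committed nuclei (467) held at least 2 UMIs of Gpr17, Bmp4 and Neu4 together and at least 2 of Bcas1, with at most 1 of Enpp6. Mature nuclei (1123) held at least 2 UMIs each of Mog and Mobp, with at most 1 of Enpp6. Levels are counts per 1000000 (CPM), the UMIs of a gene scaled to that total of UMIs over the nuclei of a stage, and genes are compared between stages and not with each other. A gene was called higher or lower if its ratio of summed levels was at least 2-fold and had the same direction in all 6 libraries. This is a description with no test, because the stages were chosen by counts of the same nuclei and no library could be tied to a mouse. Every ratio sets stages of the same libraries side by side. The sums are not balanced by library, however. Library 3 held 62 members and 100 committed nuclei, and library 5 held 170 and 64. Differences between libraries can thus enter the summed ratios. The genes of a rule were left out of every count that uses it.

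The 2 label markers outside the rule were high in the members. Tns3 stood at 1264 CPM over all members (exact 95% Poisson interval 1229 to 1299.9), and at 1251, 1173, 1187, 1781, 1375 and 996 CPM in libraries 1 to 6. In committed nuclei Tns3 was at 565, 609.9, 555, 779, 669 and 584 CPM in the same libraries, and in mature nuclei at 205, 185, 173, 121, 195 and 94.7. Every library of members was thus above every library of the other 2 stages for Tns3. The log2 ratio was 1.02 over committed nuclei, just past 2-fold, and 2.77 over mature nuclei. The first call was lost without library 1 or without library 3, where the log2 ratio of Tns3 was 1.00 and 0.99. It was also lost with Enpp6 at 1 or more UMIs (0.69), with no neuronal UMI allowed (0.97) and in nuclei thinned to 2000 UMIs (0.71). For this and every other ratio after thinning, the stage rules were applied again to the thinned counts, so the nuclei of each stage differ too. Itpr2 was at 704, 784, 804, 1059.8, 938 and 583 CPM in the members of libraries 1 to 6. Committed nuclei overlapped that range of Itpr2, at 729, 646, 696, 586, 779.5 and 649 CPM, whereas mature nuclei lay far below it, at 73.0 to 117. The log2 ratio of Itpr2 was 0.25 over committed nuclei, which was no call, and 3.02 over mature nuclei.

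Detection per nucleus was compared after each nucleus was thinned to 2000 UMIs, with stages kept from the full counts, which left 660 members. A Tns3 UMI was found in 74.4% of the thinned members (95% interval 70.9 to 77.7%) and in 8.63% of endothelial nuclei, whose median depth was 3880 UMIs before thinning. Microglia had it in 33.6%. Before thinning, the Tns3 shares were 86.3% of members and 18.7% of endothelial nuclei. For Itpr2 the thinned share was 64.7% of members, against 33.2% of endothelial and 35.9% of microglial nuclei; whether stray RNA or expression gives the shares in these other cell types was not tested, for Tns3 as well. For Tmem163, a zinc transporter, it was 62.3% of members and 4.61% of endothelial nuclei (73.6% and 9.66% before thinning).

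Members just inside the rule and nuclei just outside it formed a gradient rather than a step. Enpp6 ranged from 2 to 19 UMIs per member with a median of 3, and 231 members (34.1%) had exactly 2. In those 231, Tns3 was at 887 CPM and Tmem163 at 627 CPM, against 1451 and 1133 CPM in the 447 members with 3 or more Enpp6 UMIs. The 427 nuclei with exactly 1 Enpp6 UMI that met every other condition had Tns3 at 536 CPM and Tmem163 at 369 CPM. Mog, a myelin surface protein, went the other way, from 687 CPM at 1 Enpp6 UMI through 650.3 at 2 to 398 at 3 or more. Another 569 nuclei met the Enpp6 and Bcas1 conditions but held 2 or more UMIs of the precursor genes. These were counted in neither stage, and had Tns3 at 1542 CPM, Itpr2 at 1169 CPM and Mog at 101 CPM. Tns3 and Itpr2 were thus higher there than in members with 3 or more Enpp6 UMIs (1451 and 920 CPM), while Tmem163, at 614 CPM, was lower. A further 204 nuclei failed on the neuronal genes alone, with a median depth of 8423.5 UMIs and the neuronal gene Snap25 at 486 CPM against 313 CPM in members with exactly 2 Enpp6 UMIs. The last 44 nuclei failed on Bcas1 alone, at exactly 1 UMI.

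Newly formed nuclei were unevenly spread over the libraries. Libraries 1 to 6 held 158, 208, 62, 47, 170 and 33 of them, or 1.15, 1.29, 0.419, 0.386, 1.58 and 0.402% of their nuclei. Library 5 had the highest share and library 4 the lowest. Mature nuclei ranged over the libraries from 0.419 to 2.52%, while committed nuclei (0.487 to 0.676%) and progenitor nuclei (1.52 to 2.39%) ranged less. Among the 3704 nuclei of the 4 stages, members were 18.3%, and 18.6, 21.3, 12.8, 13.1, 22.3 and 12.2% in libraries 1 to 6. For every 100 progenitor nuclei there were 23.4 to 65.9 members. A nucleus with fewer UMIs of Enpp6 drops out of the rule, so that fewer nuclei of the stage and less marker RNA per nucleus cannot be told apart in these shares.

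**Figure D1:**
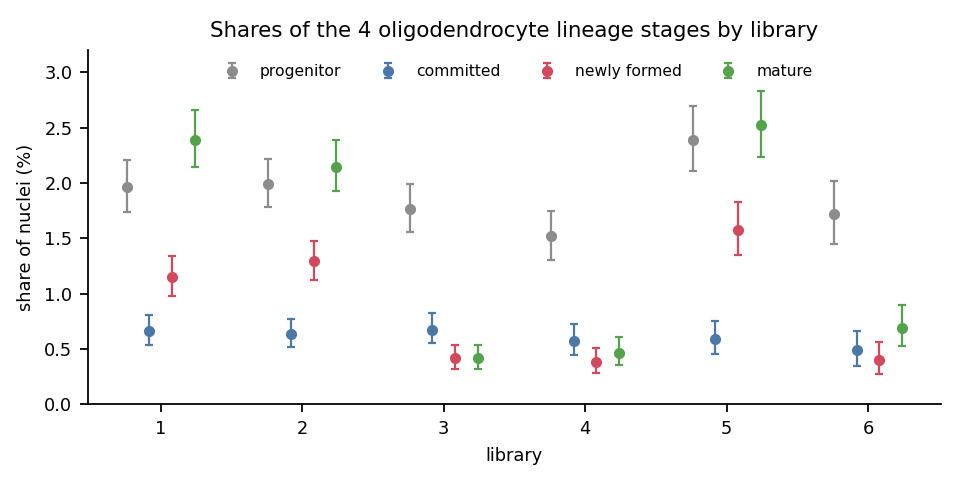
Share of nuclei (%) in each of the 4 stages, by library from 1 to 6; points are shares and bars are exact 95% binomial intervals for counting error. Newly formed nuclei range from 0.386 to 1.58% and mature nuclei from 0.419 to 2.52%.

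The genes known for the newly formed stage were described as a list of 15, of which 13 were outside the rule. Over committed nuclei 7 of the 13 were higher and 1 was lower, with a median log2 ratio of 1.35; of all 12344 genes tested, 3.04% were higher and 3.98% lower, with a median of -0.20. Over mature nuclei 10 of 13 were higher and none lower, with a median of 1.88; of all 13447 genes tested, 2.99% were higher and 1.33% lower, with a median of 0.05. The list was drawn up with earlier results of these nuclei known, so its direction is no independent evidence. Scaling with TMM factors, which correct for differences in RNA composition, moved the median of all genes over committed nuclei up by 0.21 on the log2 scale, to 0.00, and changed the counts from 375 higher and 491 lower to 584 higher and 228 lower.

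In all, 5 of the 13 genes of the list were called higher than in both stages, as were 0.516% of all 14146 genes tested. The 569 nuclei that failed on the precursor genes alone are in neither stage, and Tns3 was higher in them (1542 CPM) than in the members. The long non-coding RNA 9630013A20Rik was at 1998, 1636, 1439, 1037, 3148 and 2485 CPM in the members of libraries 1 to 6, above every library of committed (177 to 624) and mature nuclei (190.1 to 654). Its log2 ratio was 2.51 over committed and 1.98 over mature nuclei. The scaffold protein gene Cnksr3 was at 1386, 1304, 1028, 257, 1430.0 and 646 CPM, with library 4 far below the others and inside the range of mature nuclei (158 to 448). The zinc transporter gene Tmem163 was at 966 CPM in members, 215 in committed and 263 in mature nuclei. The small GTPase gene Rras2 was at 404, 59.3 and 133 CPM in the same order, and Tns3 was the last of the 5. The call of Rras2 over mature nuclei was not kept with TMM scaling, with Enpp6 at 1 or at 3 or more UMIs, or after thinning to 2000 UMIs (log2 ratios 1.55, 1.66, 1.69 and 1.34), since the direction then differed in some library.

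Other genes of the list were shared with a neighbouring stage. Fyn, a Src-family kinase of myelinating cells, was at 1527, 1484, 1602, 2773, 1547 and 1123 CPM in the members of libraries 1 to 6. It was as high in committed nuclei (1566 to 1989.9 CPM) and low in mature ones (156 to 243), with log2 ratios of -0.12 and 2.85. The 569 nuclei that failed on the precursor genes alone, counted in neither stage, had Fyn at 3017 CPM, above the members and the committed nuclei. Mpzl1, a cell surface glycoprotein, had log2 ratios of 0.52 and 3.57. Casr, the calcium-sensing receptor, showed the opposite pattern, at 50.8 CPM in members, 2.70 in committed (6 UMIs) and 46.8 in mature nuclei. Lims2, an adaptor at integrin contacts, was the 1 gene of the list called lower than in committed nuclei, at 29.0 against 71.5 CPM; this call was not kept with TMM scaling or after thinning. In the annotation Lims2 spans Gpr17, a gene of the committed rule, on the opposite strand, and the reads of the pair cannot be told apart with certainty.

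**Figure D2:**
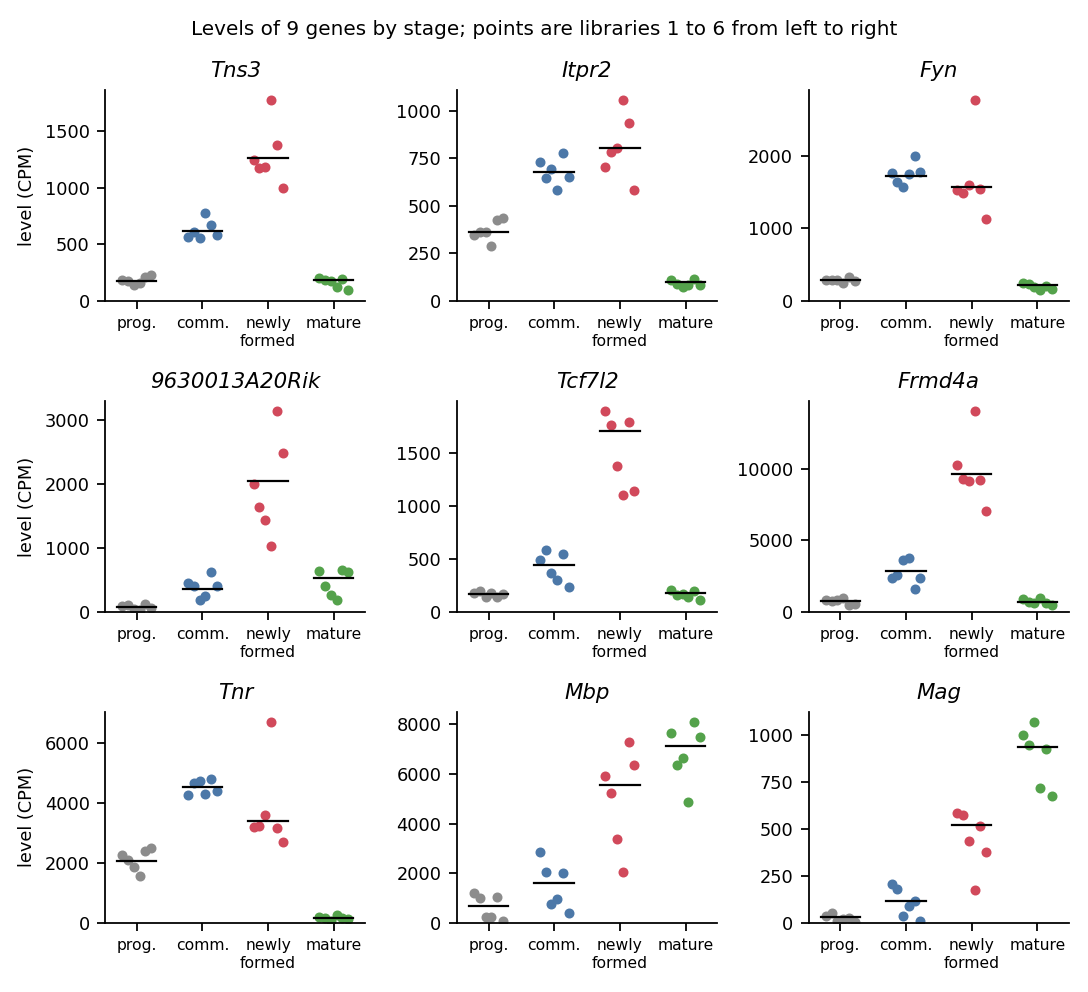
Levels (CPM) of 9 genes in progenitor, committed, newly formed and mature nuclei; points are libraries 1 to 6 from left to right and lines are the levels over all libraries summed. Tcf7l2 and Frmd4a are highest in newly formed nuclei of every library, Fyn and Tnr are shared with committed nuclei, and Mbp and Mag lie between committed and mature nuclei when summed.

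Progenitor genes lay between committed and mature nuclei. Of 12 progenitor genes outside the rule, 9 were lower than in committed nuclei and none higher (median log2 ratio -1.97), while 6 were still higher than in mature nuclei and none lower (median 1.03). Of all genes 3.98% were lower in the first comparison and 2.99% higher in the second. Tenascin-R (Tnr), a matrix glycoprotein, was at 3193, 3221, 3609, 6719, 3162 and 2696 CPM in the members of libraries 1 to 6, against 4269 to 4825 in committed, 1576 to 2507 in progenitor and 73.0 to 248 in mature nuclei. Library 4 had the highest Tnr level of any library in any of these stages. The transcription factor gene Sox6 and the proteoglycan gene Vcan stayed above mature nuclei as well (log2 ratios 3.10 and 3.06), whereas the proteoglycan gene Cspg4 was lower than in committed nuclei (-2.39) and was not called against mature ones (0.52). Of 6 cell cycle genes, 3 could be tested over committed nuclei and none was called; their summed level was 16.5 CPM in members (5.60 to 53.0 over libraries), 48.5 in committed (5.46 to 121) and 119 in progenitor nuclei. Library 2 alone had the 121 CPM of committed nuclei, the others being at 43.6 or below, and in library 6 the members were above committed nuclei (53.0 against 5.46).

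Genes were next compared with both neighbouring stages at once. Of 14146 genes tested, 73 (0.516%) were at least 2-fold above the higher of committed and mature nuclei with that direction in all 6 libraries. The 569 nuclei left out of both stages by the precursor genes enter no such ratio. Of the 73 genes, 50 were protein coding. Ptger1, the EP1 receptor for prostaglandin E2, was at 73.7, 70.1, 70.0, 31.6, 46.6 and 31.8 CPM in the members of libraries 1 to 6. In committed nuclei it was at 0 to 13.3 CPM and in mature nuclei at 0 to 5.84, so that the stages did not overlap for Ptger1. Its log2 ratio to the higher of the 2 was 3.40 (interval 2.60 to 4.33). Kcnj12, an inwardly rectifying potassium channel, was at 41.7 CPM in members against 4.05 and 3.71, a log2 ratio of 3.36 (2.40 to 4.52).

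The enzyme gene Ddc, whose product, aromatic amino acid decarboxylase, makes dopamine and serotonin, was at 131, 101, 61.6, 63.1, 115 and 47.7 CPM in the members of libraries 1 to 6. Its ranges in committed (4.10 to 28.4) and mature nuclei (5.41 to 19.7) lay below all of these, and its log2 ratio was 2.68 (2.37 to 3.01). Pdgfa, the ligand of the progenitor receptor Pdgfra, was at 88.3, 78.4, 58.8, 22.5, 115 and 68.9 CPM in the same order. Library 4 fell within the range of Pdgfa over the libraries of committed (5.46 to 28.7) and mature nuclei, and the other 5 were above both; the log2 ratio was 2.10 (1.80 to 2.41). Egflam, a matrix protein gene, had a log2 ratio of 2.30 (1.73 to 2.94).

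Pik3r3, a regulatory subunit of phosphoinositide 3-kinase, was among the more precisely counted of the 73. It was at 2178, 1682, 1655, 3337, 1977 and 1960.1 CPM in the members of libraries 1 to 6, against 364 to 618 in committed and 248 to 368 in mature nuclei, and its log2 ratio was 2.06 (1.97 to 2.16). Frmd4a, a FERM domain scaffold protein gene, was at 10265, 9265, 9097, 14034, 9226 and 7041 CPM, against 1567 to 3737 and 440.1 to 936. The transcription factor gene Tcf7l2, a partner of beta-catenin, was at 1898, 1766, 1375, 1105, 1789 and 1139 CPM, against 229 to 582 and 113 to 203. For these genes too, no library of members overlapped the other stages. The axon guidance genes Sema4d and Sema5a and the adhesion gene Cntn1 were also among the 73, with log2 ratios to the higher stage of 1.69, 1.40 and 1.07. Cntn1 was under 2-fold with Enpp6 at 1 or more UMIs (0.79), after thinning to 2000 UMIs (0.82) and by the median of the ratios of single libraries (0.98), and its direction was not the same in all libraries with Enpp6 at 3 or more (1.18).

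Part of the 73 came in overlapping pairs. Of the 23 that were not protein coding, 16 overlapped a protein-coding gene in the annotation (GENCODE vM21, GRCm38) and 9 overlapped one that was itself among the 73. Frmd4a, on the plus strand of chromosome 2 from 4017717 to 4614043, holds Gm13187, Gm13175 and Gm13179 on the opposite strand and Gm36988 on its own. Gm16029 lies opposite to Egflam, 1700042O10Rik opposite to Ddc, and Gm15402 opposite to Tcf7l1. Ppnr lies within the span of Tcf7l2, and 4930579M01Rik and Gm45600 lie opposite to the rule gene Enpp6. The sources used here do not state the strand setting of the counting, so reads of such partners cannot be told apart with certainty, and the 73 are fewer separate loci. For Gm16029 the committed nuclei held no UMI, and its log2 ratio of 3.40 is a lower bound set with 3 UMIs in place of 0. Gm32531 had a log2 ratio of 3.62, with a wide interval (2.36 to 5.27).

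**Figure D3:**
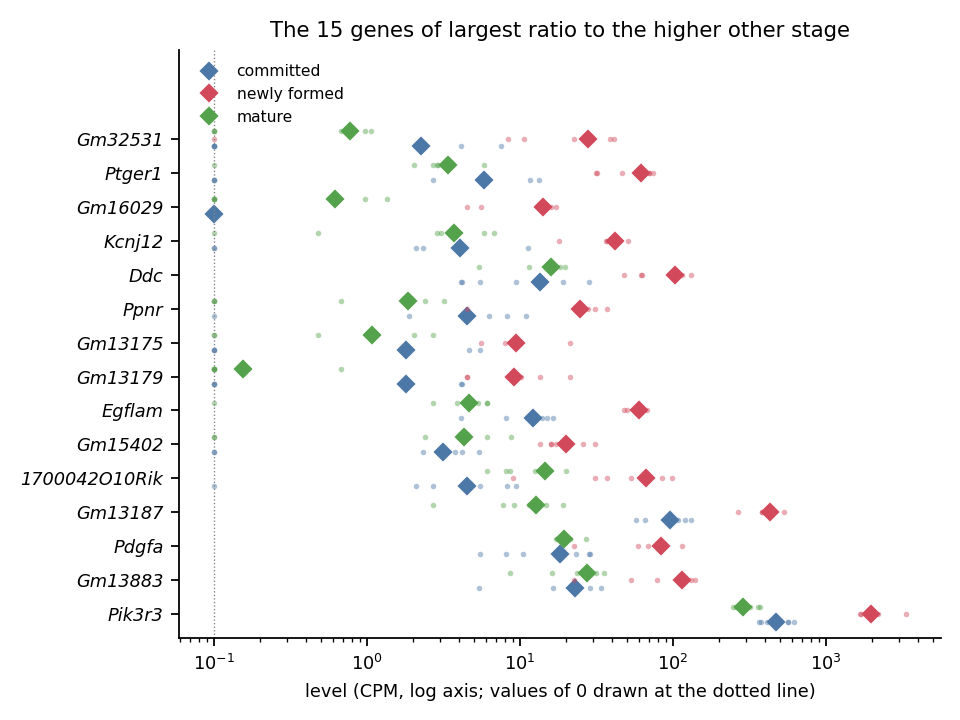
Levels (CPM, log axis) of the 15 genes with the largest ratio to the higher of committed and mature nuclei; small points are the 6 libraries, diamonds the levels over all libraries, and values of 0 stand at the dotted line. Ddc is at 103 CPM in newly formed nuclei against 13.5 in committed and 16.1 in mature nuclei.

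Few genes were lower than in both neighbours. Of the 14146 genes, 2 (0.0141%) were at least 2-fold below the lower of committed and mature nuclei on summed levels, with that direction in all 6 libraries. These were Kit, a receptor tyrosine kinase gene, at 4.32 CPM in members (17 UMIs), 12.6 in committed and 27.5 in mature nuclei, and A230077H06Rik, at 1.52, 11.7 and 4.79 CPM. Both rest on few UMIs in the members, and with no neuronal UMI allowed the log2 ratio to the lower stage went from -1.54 to -0.49 for Kit and from -1.65 to -0.53 for A230077H06Rik. Also, the count moved from 2 to between 7 and 12 when any library was left out, since a gene then had to keep its direction in 5 libraries.

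Against committed nuclei, 4 of the 10 largest increases were in protein-coding genes. Hapln2, a link protein of the node of Ranvier, had a log2 ratio of 5.18 (3.61 to 7.47) on 192 UMIs in members and 3 in committed nuclei. Tmem98, a membrane protein that binds the myelin regulatory factor, had 4.41, Casr 4.24 and the ubiquitin ligase gene Trim36 4.08. In members with 6 or more UMIs of Mog and Mobp summed, Hapln2, Tmem98, Casr and Trim36 had 189, 98, 168 and 164 UMIs. In members with no UMI of either they had 0, 3, 0 and 4, so these ratios rest mainly on members rich in Mog and Mobp. The other 6 of the 10 were non-coding genes named by number. Among the 10 largest decreases were Cacng4, an auxiliary subunit of AMPA receptors, with 46.0 CPM in members against 312 (log2 ratio -2.76), netrin-1 (Ntn1, -2.68), C1ql1 (-2.70), a secreted synaptic organizer, and Emid1 (-2.81), a matrix protein gene. The levels of these 4 genes were above the committed level in progenitor nuclei, with Cacng4 at 482 and Ntn1 at 127 CPM there.

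Against mature nuclei, the largest increases included Has2, a hyaluronan synthase (log2 ratio 5.67 on 31 UMIs in members and 1 in mature nuclei, interval 3.09 to 11.02), Tnr (4.37) and Ptger1 (4.18). Dct, dopachrome tautomerase of the melanin pathway (4.89), and the Rac-directed GTPase activator Arhgap24 (4.11) were the other protein-coding genes of the 10. The largest decreases included Opalin, a myelin membrane protein, at 34.3, 36.9, 14.0, 4.51, 39.8 and 42.4 CPM in the members of libraries 1 to 6 against 86.4 to 244 in mature nuclei (log2 ratio -2.64, interval -2.91 to -2.38). Kit (-2.67) and the angiopoietin gene Angpt4 (-2.36) were others.

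Myelin protein genes stood between the neighbouring stages. Of 14 tested over committed nuclei 8 were higher and none lower (median log2 ratio 1.67), and of 12 tested over mature nuclei none was higher and 3 were lower, Mal, Tspan2 and Opalin (median -0.54). Of all genes 3.04% were higher in the first comparison and 1.33% lower in the second. The call of Mal over committed nuclei (log2 ratio 1.11) was lost without library 3 (0.95) and without library 4 (0.99), and also with Enpp6 at 3 or more UMIs (0.85), with no neuronal UMI allowed (0.98) and after thinning to 2000 UMIs (0.74). Over mature nuclei the log2 ratio of Mal went from -1.20 to -2.74 after this thinning. Mog and Mobp were left out of the second count because the mature rule uses them. Myelin basic protein (Mbp) was at 5913, 5223, 3374, 2056, 7301 and 6378 CPM in the members of libraries 1 to 6, against 371 to 2866 in committed and 4885 to 8098 in mature nuclei. The myelin-associated glycoprotein gene Mag was at 586, 576, 437, 176, 514 and 376 CPM, against 10.9 to 204 and 675 to 1071. Library 4 was the lowest for both, and lay inside the committed range for both. Mag was lower than in mature nuclei in all 6 libraries but under 2-fold (log2 ratio -0.85).

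Myelin RNA was also counted in nuclei of cells that do not make myelin. The summed level of the 14 myelin protein genes in libraries 1 to 6 was 13296, 12008, 7728, 4451, 14800.3 and 13525 CPM in members. In endothelial nuclei it was 3517, 2567, 823, 750.1, 1705 and 612 CPM, and in microglial nuclei 2126, 1850.0, 648, 535, 1812 and 350.3. Committed nuclei, the base of the first ratio, had 6207, 4366, 1713, 2528, 3910.0 and 1075 CPM. Libraries 1, 2 and 5 were the 3 highest in all 3 of these other groups of nuclei. The part of stray RNA in the myelin ratios was not tested. Endothelial and microglial nuclei were chosen with at most 1 UMI of Mog, 1 of the 14 genes, which holds their sums down. The member level was above the endothelial level of its own library in each of the 6, with the smallest ratio in library 1.

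Genes for the lipids of myelin include those of cholesterol synthesis. Of 20 such genes, 2 were higher than in committed nuclei (3.04% of all genes were), Acat2 (log2 ratio 1.04), which joins acetyl-CoA units, and Nsdhl (1.65), a late enzyme of the pathway. The call of Acat2 was lost without library 2 (0.98) and without library 4 (0.94). It was also lost with Enpp6 at 1 or more UMIs (0.87), with no neuronal UMI allowed (0.86), by the median of the ratios of single libraries (0.79) and, through its direction in some library, after thinning to 2000 UMIs (1.01). The list's median was 0.84 and all 20 ratios were above 0, against 33.4% of all genes tested. Over mature nuclei none of the 20 was called in either direction (median -0.21). Of all genes 2.99% were higher and 1.33% lower there, so that no call among 20 is near the background. The summed level of the 20 was 1077, 1072, 1036, 564, 1257 and 1007 CPM in the members of libraries 1 to 6, with library 4 well below the rest and within the committed range (468 to 635). Mature nuclei had 941 to 1346 CPM and endothelial nuclei 347 to 512.

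The 19 genes of cholesterol uptake, lysosomal egress and control had a median log2 ratio of 0.27 over committed nuclei and of -0.16 over mature nuclei. None was called over mature nuclei. Over all genes 2.99% were higher and 1.33% lower there, so that a list of this size with no call is near the background. The lipoprotein receptor gene Lrp1 was lower than in committed nuclei, at 46.2 against 136 CPM. Npc1 itself was at 50.9, 46.7, 64.4, 67.6, 54.6 and 74.2 CPM in the members of libraries 1 to 6 and at 53.6 CPM in all (46.6 to 61.3). It was called in neither comparison (log2 ratios 0.27 and -0.35), with 44.5 CPM in committed, 68.5 in mature and 59.4 in progenitor nuclei. A 3' count does not show whether a transcript carries the null allele.

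Of 12 genes for galactolipids, the main glycolipids of myelin, 4 were higher than in committed nuclei, as were 3.04% of all genes. These were Ugt8a, the galactosyltransferase of the pathway, Fa2h, Cers2 and Elovl7, with log2 ratios of 1.54, 1.07, 1.08 and 2.33. Cers2, a ceramide synthase for very long chains, was also lower than in mature nuclei (-1.09), and the list's medians were 0.34 and -0.30. Of the 10 genes of the mature stage tested over committed nuclei 5 were higher and 1, Serinc5, lower (median 1.65), against 3.04% and 3.98% of all genes. Of 12 tested over mature nuclei 2 were lower, Car2 and Aspa (median -0.50), against 1.33% of all genes.

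Transcription factors of the lineage did not move as a group. Of 21 tested, 4 were higher and 2 lower than in committed nuclei (median log2 ratio 0.12), and 4 were higher and 3 lower than in mature nuclei (median 0.15). Over all genes these shares were 3.04%, 3.98%, 2.99% and 1.33% in the same order. Tcf7l2 was the gene higher than in both, with 1.96 and 3.26. Myrf, the master regulator of myelin genes, was called over committed nuclei and not over mature ones, at 127 CPM in members (78.4 to 140.2 over libraries), 53.5 in committed and 113 in mature nuclei. After thinning to 2000 UMIs its log2 ratio over committed nuclei was 0.42 in place of 1.24, with no call. The repressor gene Zfp536 was intermediate, with log2 ratios of 1.56 and -1.11. Nkx2-2 and Myt1, regulators of the start of differentiation, were higher than in mature nuclei (2.44 and 1.57), and Myt1 was lower than in committed nuclei (-2.25). Sox10, which the whole lineage uses, was at 311 CPM in members, 208 in committed and 225 in mature nuclei, with no call.

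Enzymes that set or remove methyl and acetyl groups at a lysine of histone H3 (H3K27), a mark the study followed, gave no call. None of 13 was called over committed nuclei, where 3.04% of all genes were higher and 3.98% lower, or over mature nuclei, where 2.99% were higher and 1.33% lower, so that a list of this size with no call is near the background. The medians were -0.11 and -0.02, and the first changed sign with TMM scaling, to 0.10. Their summed level was 1229 to 1261 CPM over the 6 libraries of members, 1138 to 1370.4 in committed and 1206 to 1390.3 in mature nuclei. The methyltransferase gene Ezh2 was at 120.4, 105, 109, 72.2, 116 and 143 CPM in the members of libraries 1 to 6, and the demethylase gene Kdm6a at 194, 136, 151, 108, 156 and 122. Of the neuronal genes the study followed, Lhfpl4, Cpeb1 and Kcna6, none was called; in members Lhfpl4 was at 5.30 to 49.6 CPM over the libraries, Cpeb1 at 13.6 to 76.7 and Kcna6 at 18.0 to 43.7. Library 4 was the highest for Lhfpl4 and Cpeb1 and the lowest for Kcna6.

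Adhesion and outgrowth genes were called in both comparisons. Of 16 genes for adhesion and axon contact, 6 were higher and none lower than in committed nuclei (median 0.90), and 5 were higher and 2 lower than in mature nuclei (median 0.45). Over all genes 3.04% were higher and 3.98% lower in the first comparison, and 2.99% and 1.33% in the second. Nfasc, whose glial form anchors the paranodal loop, was at 2416 to 4006 CPM in members, 737 to 1108 in committed and 1345 to 2434 in mature nuclei. Its log2 ratios were 1.88 and 0.71. Cadm1, an adhesion molecule at the contact of axon and glia, was called over mature nuclei (1.88) and not over committed ones (0.60). Of 16 cytoskeleton genes, 3 were higher than in committed nuclei, Frmd4a, Frmd4b and Tppp (median 0.53), and over mature nuclei 3 were higher, Frmd4a, Marcks and Dock9, and 2 lower, Fnbp1 and Daam1 (median 0.06). Of 21 receptor and signalling genes 2 were higher and 1 lower than in committed nuclei (median -0.50), among them the lysophosphatidic acid receptor gene Lpar1 (2.51), and 1 was higher and 2 lower than in mature nuclei (median 0.08).

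**Figure D4:**
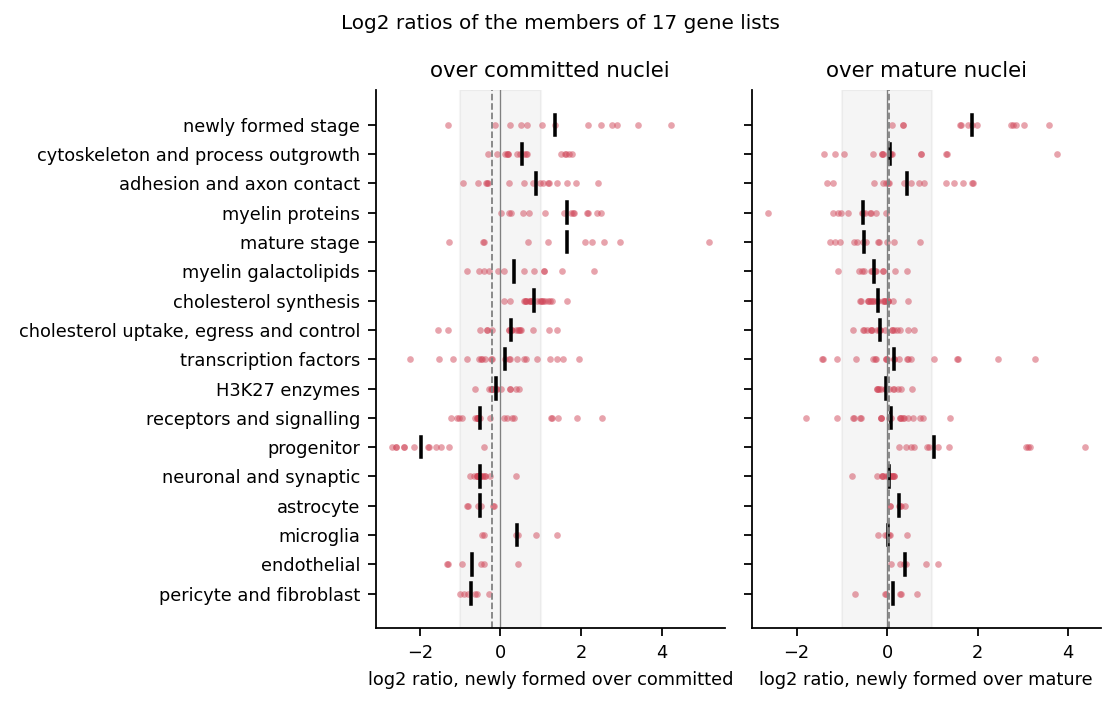
Log2 ratios of the tested members of 17 gene lists in newly formed over committed nuclei (left) and over mature nuclei (right); each point is a gene, the black bar the list's median, the dashed line the median of all genes tested (-0.20 and 0.05) and the shaded band under 2-fold. Progenitor genes lie mostly below 0 on the left and above 0 on the right, and myelin protein genes the reverse.

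Genes known for other cell types were also counted in the members. Whether stray RNA or expression gives these counts was not tested. Of 16 neuronal and synaptic genes none was called in either comparison (medians -0.51 and 0.04), which is near the share called over all genes. Every stage, and the microglial and endothelial nuclei, held at most 1 UMI of Slc17a7, Slc17a6, Gad1 and Gad2 together. Nuclei rich in neuronal RNA were thus left out on all sides, which limits what these genes can show. The summed level of the 16 in members was 3421, 4071, 3709.9, 5037, 2319 and 2082 CPM in libraries 1 to 6. Endothelial nuclei had 3747, 3727, 4849.5, 5805, 1899 and 2043 CPM of the same genes, the lowest also in libraries 5 and 6. A Snap25 UMI was found in 43.2% of thinned members, below the 49.9% of endothelial and 64.2% of microglial nuclei. The neuronal limit was set before thinning and falls harder on deep nuclei. Microglial nuclei had a median of 2808 UMIs against 5066.5 in members. Of the 6 astrocyte genes none was called (medians -0.52 and 0.27); they summed to 921, 809, 1985, 744, 339.9 and 1187 CPM, with library 3 the highest. The 6 microglial genes summed to 77.6 to 249 CPM in members against 1558 to 2579 in microglia, and 1 of them, Csf1r, was called higher than in committed nuclei (1.41; medians of the list 0.42 and 0.02). That call was lost when nuclei with defining genes of other classes were left out. The 6 endothelial genes summed to 106 to 392 CPM against 5291 to 9632 in endothelial nuclei (medians -0.71 and 0.39), with Ptprb called over mature nuclei (1.12). Microglial nuclei were chosen by Csf1r, Cx3cr1 and P2ry12 and endothelial nuclei by Flt1, Cldn5, Pecam1 and Ptprb. Their distance from the members in these sums thus follows in part from the rules. Over all genes 3.04% were called higher and 3.98% lower in the first comparison, and 2.99% and 1.33% in the second. The 6 pericyte and fibroblast genes summed to 26.5 to 280.0 CPM and had no call (medians -0.72 and 0.13).

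The members were not uniform in myelin gene content. Mog was at 0 UMIs in 352 of the 678 (51.9%) and Mobp in 254, while 205 (30.2%) held at least 2 UMIs of each, as the mature rule asks. With both genes summed, 189 members (27.9%) held 0, 227 (33.5%) held 1 to 5 and 262 (38.6%) held 6 or more. The median depth of these classes was 3782, 4339 and 6783.5 UMIs; the part of depth in the split was not tested. In libraries 1 to 6 the class without either gene made up 17.7, 20.2, 51.6, 76.6, 21.8 and 42.4% of members, and the class with 6 or more 43.0, 40.9, 25.8, 4.26, 44.7 and 45.5%. Library 4 had 36 of its 47 members in the first class and 2 in the last.

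Other genes differed with this content, although the classes were cut from the same counts and no test is given. Between the class with 6 or more and the class without, 475 of 9471 genes (5.02%) were higher and 307 (3.24%) lower. Prr5l was at 4.87, 10.6 and 1057 CPM from the class without to the class with most, a log2 ratio of 7.76 (6.40 to 9.64). The actin-binding protein gene Anln was at 2.44, 3.55 and 226 CPM, so that both genes stayed near their low level in the middle class. The transcription factor gene Creb5 was at 12.2, 122 and 685 CPM and was already up in the middle class. Mag was at 186, 368 and 743 CPM. Of the 12 myelin protein genes outside the split 8 were higher (median log2 ratio 1.54), and of 20 cholesterol synthesis genes 6 were higher (median 1.20), against a median of -0.13 over all genes tested.

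Genes of the earlier stages ran the other way. Sox6 was at 1679, 1038 and 127 CPM from the class without to the class with most, a log2 ratio of -3.73 (-3.93 to -3.53). Ppfibp1, a liprin of adhesion sites, was at 1050.4, 692 and 60.8 CPM, and Tnr at 6461, 5366 and 1037. Of 10 progenitor genes 8 were lower and none higher (median -1.76). Tns3, at 1743, 1764 and 783 CPM, was level over the first 2 classes and lower in the last. Genes above both neighbours had no single pattern over the classes. Tcf7l2 was at 1590.3, 2711 and 1173 CPM, Ddc at 75.6, 189 and 65.9, and Pdgfa at 56.1, 121 and 73.4. Pik3r3, by contrast, was at 3174, 3109 and 834 CPM, and Rras2 at 126, 422 and 508.

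**Figure D5:**
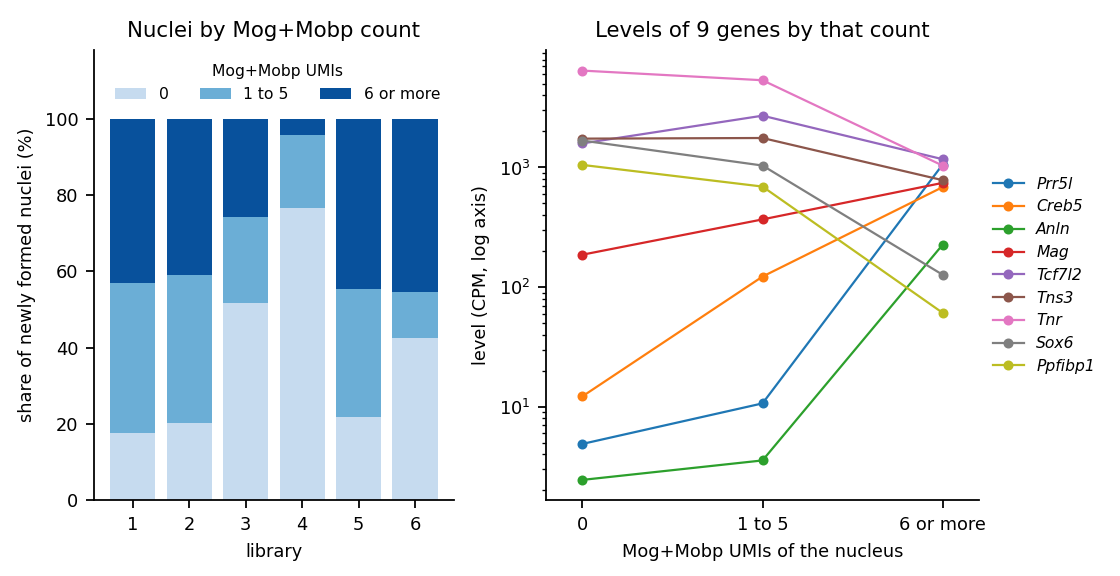
Left, share of newly formed nuclei (%) with 0, 1 to 5, and 6 or more Mog and Mobp UMIs, by library; right, levels (CPM, log axis) of 9 genes in those classes. In library 4, 76.6% of the nuclei hold neither gene, against 17.7% in library 1; Prr5l goes from 4.87 to 1057 CPM and Ppfibp1 from 1050.4 to 60.8 CPM.

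The members also differed between libraries. Of 3635 genes with at least 200 UMIs in members, 1863 (51.3%) spread over libraries beyond counting error. Xist, on the X chromosome, spread most, at 2104, 0, 1778, 13.5, 1.14 and 1091 CPM in libraries 1 to 6. Eif2s3y, on the Y chromosome, was at 0, 140, 2.80, 153, 261 and 0 CPM. Sex was not analysed, and library differences named here may include it. Library 4, with 47 members, was the highest for several other genes. Among genes with at least 200 UMIs in members, the retinoic acid receptor gene Rarb was at 94.5, 39.2, 75.6, 361, 23.9 and 42.4 CPM in libraries 1 to 6. The actin regulator gene Eps8 was at 61.3, 78.4, 185, 487, 77.3 and 106 CPM, and the outgrowth gene Nav2 at 1144, 1026, 1728, 3932, 872 and 1187. For Rarb, Eps8 and Nav2, library 4 was the highest. Over all nuclei of a library the same genes ranged less, with Rarb at 203 to 247 CPM, Eps8 at 63.4 to 81.9 and Nav2 at 689 to 919. Eps8 was at 262 CPM in members without Mog and Mobp against 24.6 in those with 6 or more, and Rarb at 128 against 51.8 with no call; the part of this content in the levels of library 4 was not tested. Cmss1, by contrast, was highest in library 5 both in members (271 to 1285 CPM) and over all nuclei (289.7 to 1042 CPM). Progenitor genes summed to 5296, 5522, 7101, 11225, 5077 and 5038 CPM in the members of libraries 1 to 6, again with library 4 the highest. Tnr alone gave more of this sum than the other genes of the list together in each library. Its level in members of every library was above that of progenitor nuclei. The newly formed list, which includes the rule genes, summed to 13283, 12217, 11446, 13308, 15125 and 10002 CPM.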

How the data were processed

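Nuclei of mouse forebrain at postnatal day 16, from 3 WT and 3 Npc1-/- mice, were profiled by droplet RNA sequencing. Per the file headers, the deposited matrix was written by Cell Ranger 6.0.0 and holds raw UMI counts, 1 whole number per gene and barcode; the submitters' processing notes name Cell Ranger 2.1.1 and mm10. In their methods the authors used STARsolo with GRCm38, filters on droplets, multiplets and mitochondrial share, imputation and log scaling. The link between that workflow and the matrix is not stated in the sources used here. Columns of other series numbered 0.

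Barcodes with 10% or more mitochondrial UMIs were left out (11). Stages were set by counts of their marker genes, without clustering and without removal of doublets. Counts were summed per stage and library, divided by the stage total and given per 1000000 (CPM). Genes with at least 30 UMIs over the stages compared were tested for a 2-fold ratio with the same direction in all 6 libraries, with 0.5 UMIs added per library for the direction and 3 UMIs in place of a sum of 0. Intervals of ratios are exact binomial ones at 95%. For detection, nuclei were thinned to 2000 UMIs, which leaves out shallower nuclei, and stages were kept from the full counts. At these depths a gene at a few CPM is often missed in a single nucleus. Ratios after thinning use stages set again by the rules on the thinned counts. Python 3.11.15 (numpy 2.4.6, scipy 1.17.1, pandas 2.3.3, scanpy 1.11.5 for doublet scores) and R 4.3.3 with edgeR 4.0.16 (TMM factors alone) were used.

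The members, the gene lists and the comparisons were chosen with earlier results of these data known. Named genes were the 10 of largest ratio in each direction over committed and over mature nuclei, the 15 highest and 5 lowest against both, the label markers, Npc1, Ezh2, Kdm6a, Kdm6b, Lhfpl4, Cpeb1 and Kcna6, up to 6 members of each list by UMIs, and the 10 genes with the widest range over libraries. Other list members that were called, and the genes named for the classes by Mog and Mobp, were chosen after their values were seen. Libraries entered the calls by their direction and were not used as replicates of a genotype, and the effect of genotype is not analysed here. Some genes of the lists are not reported here by name.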

Additional observations from a re-analysis of the deposited data

How the results depend on the processing

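By replicate number of the mice, no paired analysis was possible because no library could be tied to a mouse. Stages could be paired by library, since each library held all of them, but no paired test was made. By the median of the ratios of single libraries, 747 genes were apart from committed nuclei, 572 from mature nuclei and 61 higher than both. Leaving out 1 library at a time gave 470 to 645 members, a share of 0.781 to 1.01%, 785 to 1175 genes apart from committed nuclei, 590 to 662 apart from mature nuclei, 68 to 88 higher than both and 7 to 12 lower than both. With Enpp6 at 3 or more UMIs there were 447 members (0.589%) and 13 genes lower than both. With Enpp6 at 1 or more there were 1105 (1.46%), 41 genes higher and 9 lower than both. With no neuronal UMI allowed there were 419 (0.552%) and 4 lower than both. With nuclei holding defining genes of other classes left out, an alternative chosen after seeing the data, the share was 0.999%. After thinning to 2000 UMIs, with the stages set again on the thinned counts, there were 477 members. They were 0.705% of the nuclei with at least 2000 UMIs. Then 248 genes were apart from committed nuclei (119 higher, 129 lower) and 1041 from mature nuclei (496 lower), and 33 were higher and 9 lower than both. Fewer UMIs and fewer nuclei enter after thinning by construction, and the nuclei of each stage are not the same set. The count apart from mature nuclei rose all the same, from 581, and why it rose was not tested. TMM scaling gave 584 higher and 228 lower over committed nuclei and 4 lower than both. A minimum of 100 UMIs left 317 lower than committed and 1 lower than both, and a minimum of 1 UMI gave 1023 apart from mature nuclei (837 higher). Causes of these changes were not tested.

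No called ratio of a named gene changed sign under the alternatives run. Of 13052 gene values under an alternative, 11377 stayed within the main counting interval and 1675 moved, of which 469 (of 718) moved after thinning. Those that stayed include 843 values at a minimum of 1 UMI and 740 at a minimum of 100, settings that cannot change a ratio. A gene's ratio to the higher stage also mostly repeats its ratio to committed or to mature nuclei. Of 26 named genes called higher than both, 19 kept the call with Enpp6 at 1 or more, 12 after thinning (4 could not be tested) and at least 23 under each of the others. Of 92 named genes called over committed nuclei, 34 kept the call after thinning and 26 could not be tested. List medians that changed sign under some alternative were, over committed nuclei, those of the H3K27 enzymes, cholesterol uptake, transcription factors, astrocyte and microglial genes, and, over mature nuclei, those of the H3K27 enzymes and of cell cycle, cytoskeleton, receptor, neuronal, microglial, endothelial and pericyte genes. Depth limits genes at a few CPM, and each call needs all 6 libraries; without library 4 there were 1175 genes apart from committed nuclei and 88 higher than both, and without library 6, with 33 members, 904 and 80.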

Other observations

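The shares of newly formed nuclei in libraries 1 to 6 (1.15, 1.29, 0.419, 0.386, 1.58 and 0.402%) fell into 2 separate sets of values, 3 above 1% and 3 below 0.5%. The shares among the 4 lineage stages (18.6, 21.3, 12.8, 13.1, 22.3 and 12.2%) divided at the same libraries. This division was not particular to newly formed nuclei. Mature nuclei, at 2.39, 2.15, 0.419, 0.468, 2.52 and 0.694% of all nuclei, divided there as well. Progenitor nuclei did so by a narrow gap (1.96, 1.99, 1.76, 1.52, 2.39 and 1.72%), and committed nuclei did not. The suffixes were not tied to mice in the sources used here, and no test or comparison was made between these sets.

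The share of members with neither Mog nor Mobp, at 17.7, 20.2, 51.6, 76.6, 21.8 and 42.4% in libraries 1 to 6, and that with 1 to 5 UMIs of both, at 39.2, 38.9, 22.6, 19.1, 33.5 and 12.1%, divided at the same libraries too. The share with 6 or more, at 43.0, 40.9, 25.8, 4.26, 44.7 and 45.5%, did not, since library 6, which had 33 members, was beside libraries 1, 2 and 5. Hapln2 was at 55.0, 39.2, 28.0, 31.6, 51.2 and 132 CPM in the members of these libraries and at 46.7, 47.4, 70.3, 169.9, 70.6 and 183 CPM in mature nuclei, with library 6 the highest for Hapln2 in both stages.

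Serinc5, counted with the genes of the mature stage, was at 75.7 CPM in members, against 182 CPM in committed nuclei (log2 ratio -1.27, lower in 6 of 6 libraries) and 156 CPM in mature nuclei (-1.04, lower in 5 of 6). It was thus lowest in the newly formed stage of the 3, but the second ratio was not called because 1 library went the other way. Dcc, a netrin receptor gene, was lower than in either neighbour in all 6 libraries but under 2-fold (log2 ratios -0.94 and -0.30).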
